A study of Mus musculus with 18 samples.

Results

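RefSeq curates transcripts that encode no protein under accessions that start with NR_, and 1216 of the 55681 non-control probes of the array used here carry such an accession. They were taken by that prefix alone, with no use of measured values, and cover 1078 accessions, 118 of them with more than 1 probe. Through RefSeq 1137 probes were named, 6 more took a name from the study's published probe list, and 73 probes on 58 accessions keep their accession as a name. By RefSeq's classes, 865 probes measure long non-coding RNAs (lncRNAs), 238 transcribed pseudogenes and 4 small nuclear RNAs, and 18 lie on transcripts of protein-coding genes.

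The lungs came from male Muta™Mouse animals, a transgenic strain kept on a mixed BALB/C and DBA/2 background, about 12 weeks old. All were gavaged daily for 28 days, with olive oil alone (vehicle, n = 5) or with the 4PAH mixture of benzo[a]pyrene, benz[a]anthracene, benzo[b]fluoranthene and chrysene in olive oil, at 12.5 (low, n = 4), 25 (medium, n = 5) or 50 (high, n = 4) mg benzo[a]pyrene equivalents per kg body weight and day. Lung was collected 72 hours after the last dose and each mouse had its own 2-colour array, lung RNA in Cy5 against Universal Mouse Reference RNA, a pool from 11 mouse cell lines, in Cy3. Values are log2 ratios of lung to reference RNA after loess normalization within the array, so that a value of 1 is a doubling over the reference. In whole lung, fewer cells of a type and less RNA per cell cannot be told apart.

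Non-coding transcripts do very different work. Small nuclear RNAs form the core of the spliceosome, the RNA of RNase MRP helps to process ribosomal RNA precursors, and ribosomal RNA builds the ribosome. LncRNAs can act in the nucleus on chromatin, bind proteins or carry small nucleolar RNAs (snoRNAs) and microRNAs in their introns, and transcribed pseudogenes are copies of genes that often differ little from their parent. Polycyclic aromatic hydrocarbons bind the aryl hydrocarbon receptor, a transcription factor, and their metabolites damage DNA, to which p53 responds. Several lncRNAs are known p53 targets.

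RefSeq promoters were at hand for 4 of the transcripts that changed, and they are shown because these members were called at 1 or more doses. Each runs from 250 bases before to 50 bases after the start of the transcript, 5′ to 3′ on the strand of the gene, on GRCm38.p6. Tug1 lies on chr11:3648765-3649064 (minus strand), Dubr on chr16:50732724-50733023 (minus strand), Snhg18 on chr15:32244613-32244912 (minus strand) and E030044B06Rik on chr19:40868066-40868365 (plus strand). Capitals mark GCGTG on either strand, the core letters that the aryl hydrocarbon receptor recognises.
Tug1: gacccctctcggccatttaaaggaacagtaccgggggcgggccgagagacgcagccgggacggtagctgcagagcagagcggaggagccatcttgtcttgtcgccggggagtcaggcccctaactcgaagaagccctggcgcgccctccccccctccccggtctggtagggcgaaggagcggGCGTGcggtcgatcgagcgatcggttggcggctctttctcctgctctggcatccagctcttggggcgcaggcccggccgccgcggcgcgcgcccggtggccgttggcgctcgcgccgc
Dubr: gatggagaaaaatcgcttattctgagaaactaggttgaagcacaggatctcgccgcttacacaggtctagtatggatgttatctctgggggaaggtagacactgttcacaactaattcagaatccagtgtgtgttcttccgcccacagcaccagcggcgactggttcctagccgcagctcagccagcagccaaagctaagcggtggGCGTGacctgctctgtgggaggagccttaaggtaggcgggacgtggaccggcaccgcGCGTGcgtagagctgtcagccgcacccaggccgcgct
Snhg18: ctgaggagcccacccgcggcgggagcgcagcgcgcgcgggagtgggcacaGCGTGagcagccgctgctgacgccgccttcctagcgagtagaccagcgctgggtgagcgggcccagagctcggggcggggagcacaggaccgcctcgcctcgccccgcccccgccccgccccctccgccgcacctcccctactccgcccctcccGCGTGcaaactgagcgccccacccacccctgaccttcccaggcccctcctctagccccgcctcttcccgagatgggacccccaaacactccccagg
E030044B06Rik: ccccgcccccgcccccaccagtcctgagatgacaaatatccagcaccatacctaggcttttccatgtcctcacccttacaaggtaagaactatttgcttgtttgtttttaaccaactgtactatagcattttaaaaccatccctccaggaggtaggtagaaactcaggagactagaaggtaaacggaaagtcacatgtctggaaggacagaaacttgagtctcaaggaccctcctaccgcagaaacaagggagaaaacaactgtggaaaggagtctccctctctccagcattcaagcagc

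GCGTG occurred 1 time in the promoter of Tug1, 2 times in that of Dubr, 2 times in that of Snhg18 and 0 times in that of E030044B06Rik. Of all 32851 RefSeq promoters of this length, 32.4% hold it at least 1 time. The p53 half-site, a motif that 8.36% of those promoters hold, occurred in none of the 4 windows, which says only that these letters are not there. GC content was 71.3% for Tug1, 75.3% for Snhg18 and 57.3% for Dubr, and 47.7% for E030044B06Rik, with a median of 52.7% over all promoters. A match is a description of letters, not a binding site.

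The tissue matched its label. All 7 lung markers examined, among them the surfactant gene Sftpc and the club cell gene Scgb1a1, were detected on all 18 arrays. Of these 7 and of 17 markers of other cells with a probe, 3 passed the threshold at the high dose: endothelial Pecam1 rose (log2 fold change 0.74, limma adjusted p = 0.000597), fibroblast Col1a2 fell (-0.65, limma adjusted p = 0.0152) and Gzma of cytotoxic lymphocytes fell (-2.25, limma adjusted p = 0.00208). The other endothelial marker, Cldn5, did not pass the threshold (-0.19, limma adjusted p = 0.509). Markers of muscle, blood, oesophagus and thymus did not pass it either. Of the oesophagus markers Krt4 was detected on no array and Krt13 on 12 of 18. Of the thymus markers Rag1 was detected on no array, and Cd8b1 and Ccr9 on all 18. The heart muscle genes Myh6 and Tnnt2 were detected on all 18 arrays and Myl7 on 16. The part of these cells in the results below was not tested. The arrays came from 3 slides that each held all 4 groups, but within a slide each group had its own column, so position and dose cannot be told apart.

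Non-coding probes were detected less often than the rest of the array. A probe counts as detected where the scanner software marked its Cy5 signal as well above background. In the vehicle mice 43.1%, 40.2%, 40.1%, 42.3% and 48.6% of the 1216 probes were detected, a mean of 42.8% ± 3.47 (SD, n = 5), beside 56.0% ± 3.25 of the other 54465 probes. Low-dose mice had a mean share of 42.6% ± 3.64 (SD, n = 4), medium-dose mice one of 41.6% ± 2.07 (SD, n = 5) and high-dose mice one of 43.5% ± 2.29 (SD, n = 4). The doses did not differ from the vehicle beyond the spread between mice, with differences from the vehicle of -0.23, -1.20 and 0.62 percentage points and two-sided exact permutation p = 0.929, 0.595 and 0.706 (adjusted over the 3 doses p = 0.929 each). The smallest p these group sizes allow is 0.00794. The array on the third slide had the highest share in each group.

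**Figure D1:**
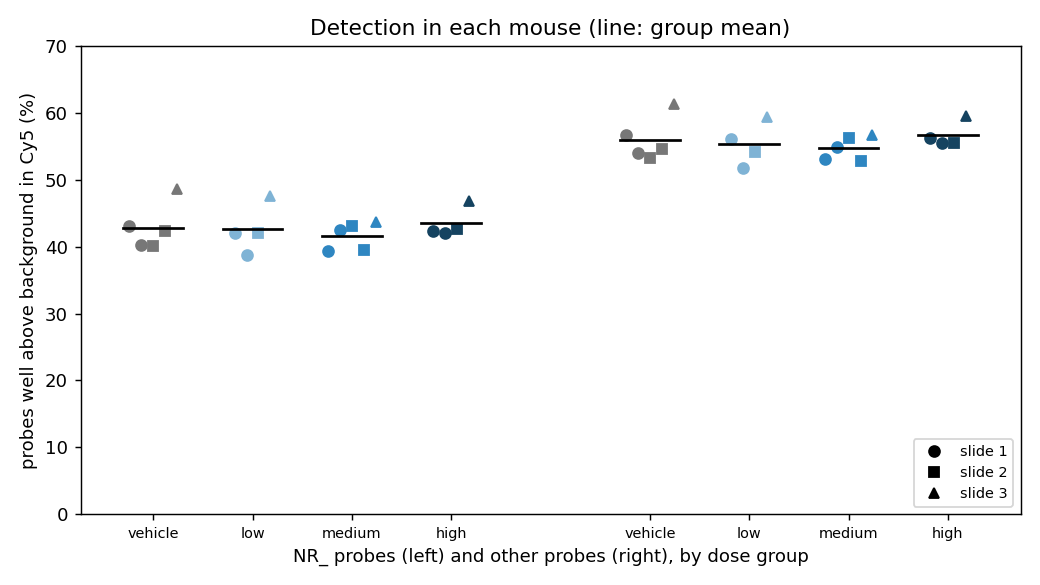
Share of probes well above background in the lung channel (y axis, percent) for each mouse by dose group, for NR_ probes on the left and all other probes on the right, with the group mean as a line and the slide as the symbol. The group means of the NR_ probes lie between 41.6% and 43.5%, and the triangles of slide 3 are the highest of each group.

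Across all arrays, 403 non-coding probes (33.1%) were detected in every mouse, 500 (41.1%) in none and 313 in some, against 47.3% in every mouse and 31.3% in none for the other probes. Detection in every mouse reached 28.1% of lncRNA probes and 41.4% of pseudogene probes, and 7 of 7 probes for structural RNAs and 11 of 11 for snoRNA host genes. Of the 14 probes beside lung and developmental factors, 1 was detected in every mouse, that of Fendrr, the lncRNA next to Foxf1 that is known from lung mesenchyme. Xist, which silences an X chromosome in female cells, was detected in none of these male lungs by either of its probes. No non-coding probe of 1216 went from undetected in every vehicle mouse to detected in every high-dose mouse, or the reverse. Among the other 54465 probes 11 and 10 did, a share so small that 0 of 1216 is no contrast.

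In vehicle lung, 380 non-coding probes were well above background in both dyes in all 5 mice, and their ratios to the reference spread from -3.61 to 4.48 on the log2 scale. Their median was -0.022 ± 0.021 (SD over 5 mice), and 49 of them (12.9%) had a mean above 1 and 60 (15.8%) a mean below -1, beside 14.5% and 12.1% of 24085 other probes. Transcripts far above the reference in lung included the imprinted Peg13 (4.12 ± 0.17), 18S ribosomal RNA (Rn18s, 3.00 ± 0.19), Fendrr (2.64 ± 0.25) and the paraspeckle scaffold Neat1 (2.60 ± 0.067). Far below it lay D5Ertd605e (-3.61 ± 0.15), Lockd (-3.21 ± 0.15) and 1 probe of Pvt1, the lncRNA beside Myc (-3.11 ± 0.16). The reference comes from cultured cell lines, and these ratios are a description with no test.

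A small set of non-coding transcripts was lower in exposed than in vehicle lungs, and 1 was higher. A probe was called where limma's adjusted p over all probes was 0.05 or less and the change at least 1.5-fold. At the high dose 13 probes on 10 transcripts were lower (1.07% of the members), where 0.805% of all probes were called lower, and 1 was higher (0.0822%), where 0.399% of all probes were called higher. The medium dose gave 8 lower and 1 higher, with 0.447% and 0.278% of all probes called lower and higher. At the low dose 1 was lower and 0 higher, with 0.0251% and 0.0647% of all probes called lower and higher. These shares of lower calls lie near those of the whole array at the high and medium doses, but the members were detected less often than other probes. Among probes detected in every mouse of some group, 13 of 487 members were called lower and 1 higher at the high dose. Of all 29507 such probes 462 were called lower and 229 higher. The 3 comparisons share their vehicle mice. With median centring in place of loess none of the members was called at any dose. At the medium, high and low doses 41, 51 and 20 of the 1216 members then had an unadjusted p under 0.05. Each is a smaller share than the 0.05 that chance alone would give. Why they are smaller was not tested, and these shares do not measure chance in the calls made with loess.

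Between the high and the low dose limma called 0 non-coding probes. Of all probes 0.0359% were called higher and 0.00898% lower. An unadjusted p under 0.05 was reached by 87 of 1216 members (32 higher, 55 lower), beside 1776 higher and 1962 lower of all 55681 probes. None of the alternative settings gave a call for this comparison. Without any threshold, every high-dose mouse lay below every vehicle mouse for 46 of 1215 members (3.79%) and above for 25 (2.06%), where 4.34% and 3.78% of all probes did so. The median log2 fold change of the members at the high dose was 0.0060, beside 0.0027 over all probes.

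The 13 probes called lower at the high dose were picked for a high-dose mean below that of the vehicle mice, so their order is a description. Group means lay in the order vehicle, low, medium, high in 13 of 13, where 83.7% of all 448 probes called lower did so. Every high-dose mouse lay below every vehicle mouse in 13 of 13 (94.2% of the 448), every medium-dose mouse in 12 (55.6%) and every low-dose mouse in 6 (34.6%). Within each of the 3 slides the high-dose mean was below the vehicle mean in 13 of 13. They were bright, with a median mean log2 intensity of 10.2, where the members detected on all arrays had a median of 8.21. The part of brightness in these calls was not tested.

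**Figure D2:**
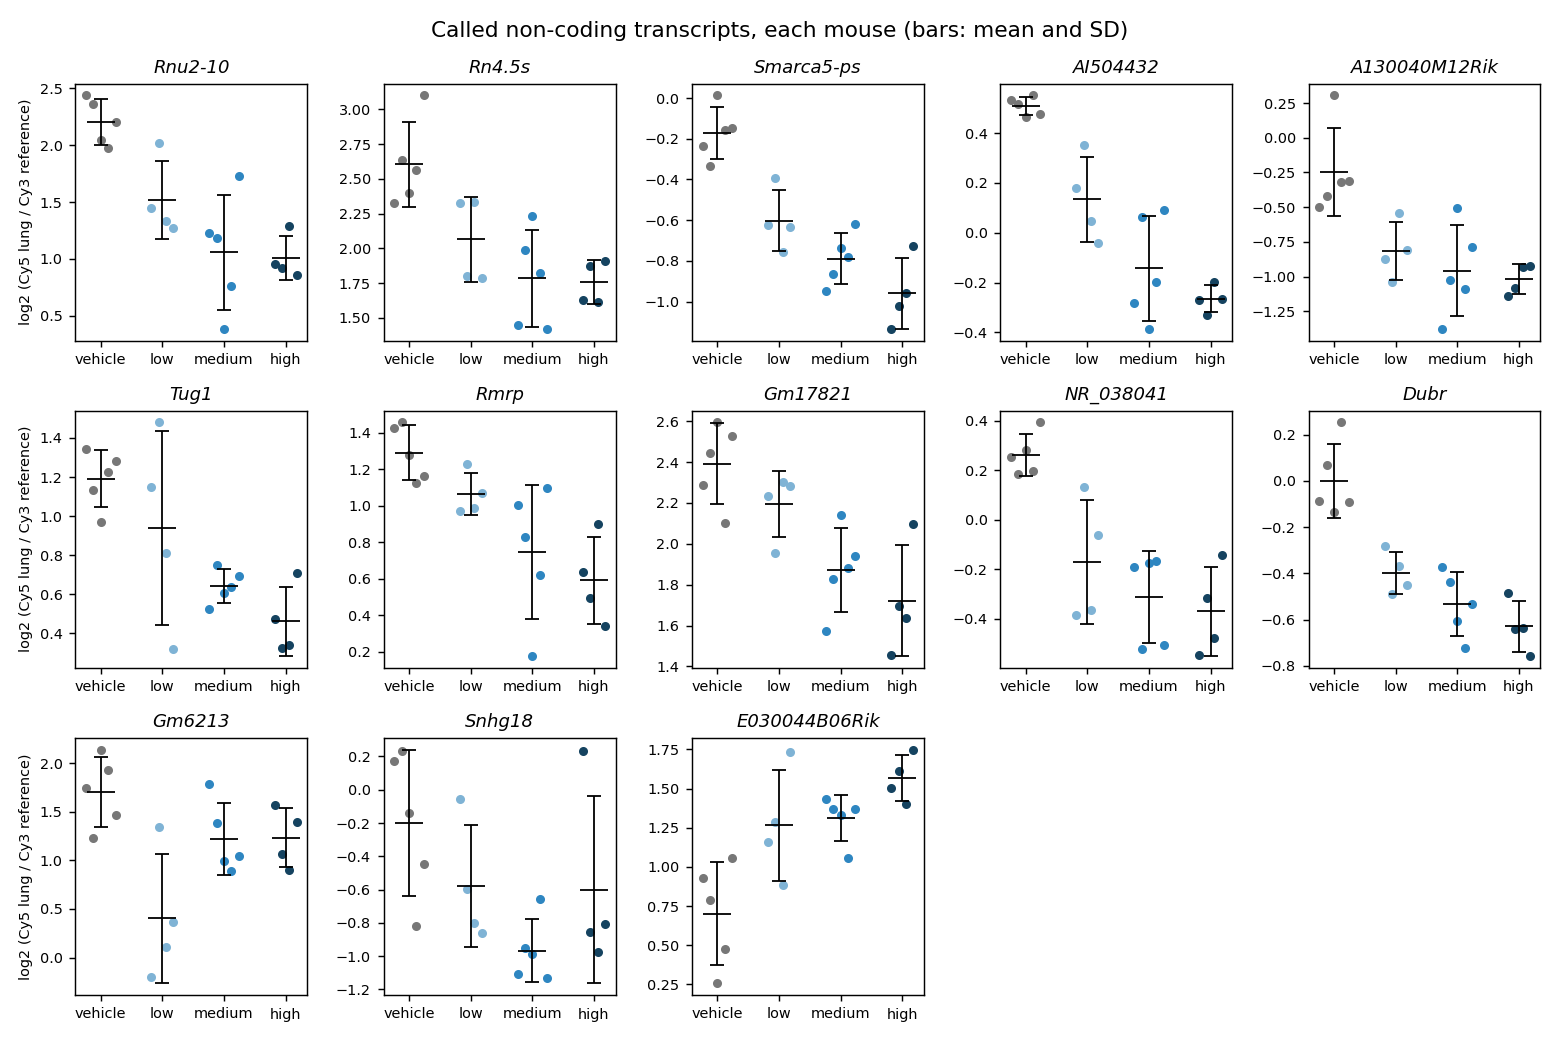
Log2 ratio of lung to reference RNA (y axis) in each mouse by dose group for the 13 called transcripts, each by its brightest called probe, with mean and SD as bars. The 10 transcripts lower at the high dose have all 4 high-dose points under the 5 vehicle points, Gm6213 is lowest in the low-dose group, Snhg18 in the medium-dose group, and E030044B06Rik rises.

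The structural RNAs listed were mostly those of RNA processing, with Terc of telomerase and Rn4.5s beside them. Of their 7 probes 3 were called lower at the high dose and 0 higher, where 0.805% and 0.399% of all probes were called lower and higher. The list median was -0.70 beside 0.0027 over all probes, and all 7 estimates were below 0. The median was -0.16 at the low and -0.55 at the medium dose, where 0 and 2 were called lower, beside 0.0251% and 0.447% of all probes. Rnu2-10 is a gene copy of U2 small nuclear RNA, the part of the spliceosome that pairs with the branch point. Its log2 ratios were 2.44, 2.36, 2.04, 1.97 and 2.21 in vehicle mice, 1.45, 2.01, 1.34 and 1.27 at the low dose, 1.23, 1.19, 0.39, 0.77 and 1.73 at the medium dose and 0.96, 0.92, 1.29 and 0.86 at the high dose. Every medium- and high-dose mouse lay below every vehicle mouse, and 1 low-dose mouse overlapped with them. The log2 fold change was -0.68 (SE 0.20, limma adjusted p = 0.238) at the low, -1.15 (SE 0.18, limma adjusted p = 0.00105) at the medium and -1.20 (SE 0.20, limma adjusted p = 0.000852) at the high dose.

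Rmrp, the RNA of RNase MRP, changed less. It measured 1.43, 1.46, 1.28, 1.12 and 1.17 in vehicle mice, 0.97, 1.23, 0.99 and 1.07 at the low dose, 1.00, 0.83, 0.18, 0.62 and 1.1 at the medium dose and 0.64, 0.49, 0.90 and 0.34 at the high dose. Low-dose mice overlapped with the vehicle mice, and the medium- and high-dose mice did not. The high-dose log2 fold change was -0.70 (SE 0.15, limma adjusted p = 0.00683), after -0.23 (limma adjusted p = 0.755) and -0.55 (limma adjusted p = 0.0281, under the fold limit). Ccdc107 and Arhgef39, protein-coding genes within 5000 bases of Rmrp, had log2 fold changes of -0.26 (limma adjusted p = 0.0379) and -0.35 (limma adjusted p = 0.0164) at the high dose, under the fold limit.

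Rn4.5s, a small rodent RNA from a repeated gene family, was among the brightest probes of the array with a mean log2 intensity of 17.3. Its log2 ratios were 2.33, 2.63, 2.40, 2.56 and 3.1 in vehicle mice, 2.33, 1.80, 2.34 and 1.79 at the low dose, 1.45, 1.99, 2.23, 1.82 and 1.42 at the medium dose and 1.63, 1.88, 1.62 and 1.91 at the high dose. Each high-dose mouse lay below each vehicle mouse, and the log2 fold change was -0.85 (SE 0.17, limma adjusted p = 0.00537). This call did not hold with the quantile-normalized lung channel alone, where the change was -0.27 (limma adjusted p = 0.0742), nor with the scanner software's ratios (-0.71, limma adjusted p = 0.0602).

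The other structural RNAs were not called at the high dose. Rnu1b6, a U1 copy, changed by -0.47 (limma adjusted p = 0.148), Rnu12 of the minor spliceosome by -0.32 (limma adjusted p = 0.547) and Terc, the template RNA of telomerase, by -0.25 (limma adjusted p = 0.35). Rnu3b1, a U3 copy that acts in ribosomal RNA processing, had an estimate of -1.04 (SE 0.52, limma adjusted p = 0.346). Its vehicle mice ranged from -0.02 to 1.66 and its low-dose mice from -0.24 to 3.43, so that this estimate stayed within the spread between mice.

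Both ribosomal RNA probes passed the adjusted p at the high dose and stayed under 1.5-fold. Rn28s1 (28S) measured 1.27, 1.18, 1.09, 1.15 and 1.07 in vehicle mice and 0.50, 0.61, 0.62 and 0.73 at the high dose, with no overlap, a log2 fold change of -0.54 (SE 0.089, limma adjusted p = 0.00103). For Rn18s (18S) the vehicle mice gave 3.25, 3.01, 2.92, 3.06 and 2.73 and the high-dose mice 2.27, 2.37, 2.50 and 2.61, a log2 fold change of -0.56 (SE 0.12, limma adjusted p = 0.00868). The labelling kit primes from poly(A) tails, which ribosomal and small nuclear RNAs lack, and how these RNAs were labelled was not tested. Copies of U1, U2, U3, 4.5S and ribosomal RNA genes are near-identical, so 1 probe may measure several of them.

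With each channel quantile-normalized on its own, the 13 probes called lower at the high dose changed by -1.23 to -0.27 in Cy5 and by -0.11 to 0.22 in Cy3, the channel of the common reference. For 12 of them the Cy5 change was larger in size than 0.5, and for Rn4.5s the changes were -0.27 in Cy5 and 0.22 in Cy3. Rn28s1 changed by -0.43 in Cy5 and by -0.044 in Cy3, and Rn18s by 0.020 and 0.29. On every array Rn18s ranked between 7 and 24 in Cy5 brightness among all probes and Rn4.5s between 11 and 28, where quantile normalization leaves a value little room to move, so these values do not show which dye moved their ratios. The scanner software marked neither as saturated in Cy5 on any array (0 of 18).

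**Figure D3:**
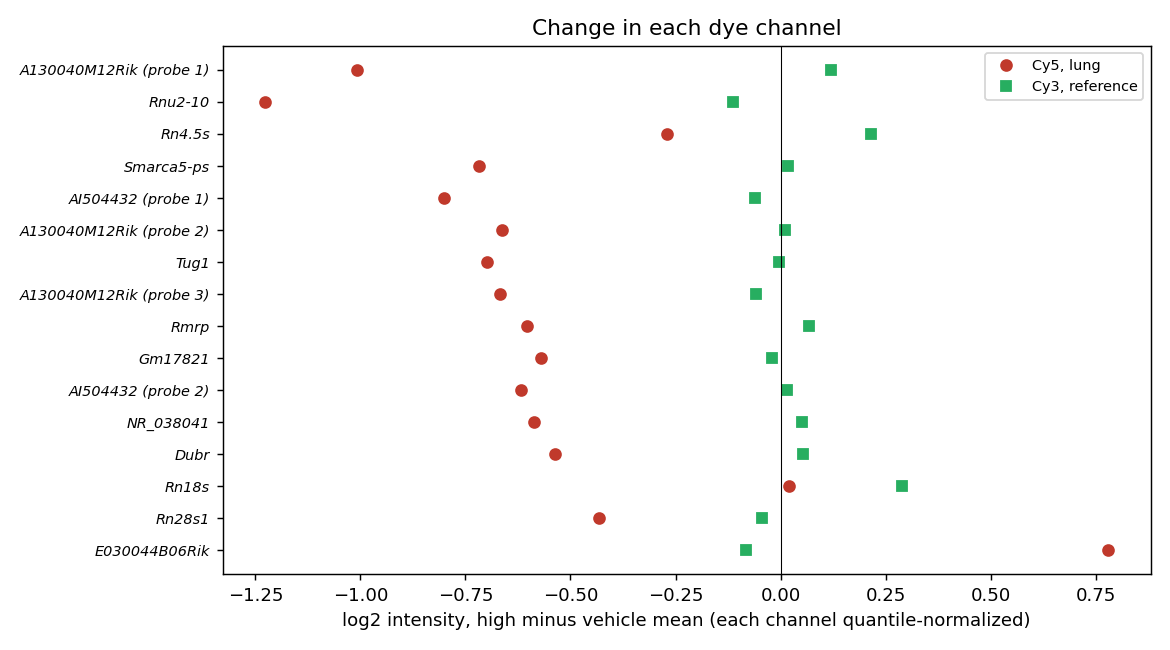
Difference between high-dose and vehicle means of log2 intensity (x axis), each channel quantile-normalized, for the 14 probes called at the high dose and the 2 ribosomal RNA probes (y axis, by symbol). Circles are Cy5 (lung) and squares Cy3 (reference). Squares lie between -0.11 and 0.29, and Rn4.5s and Rn18s are the members whose Cy3 values moved most to the right.

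Of the 15 probes for nuclear and abundant lncRNAs 1 was called lower at the high dose and 0 higher, with a list median of -0.17. Over all probes 0.805% were called lower and 0.399% higher, with a median of 0.0027, and 15 probes are too few to read 1 call as a contrast. Tug1, a nuclear lncRNA known as a p53 target, measured 1.34, 1.13, 0.97, 1.23 and 1.28 in vehicle mice on that probe, 1.15, 1.48, 0.81 and 0.32 at the low dose, 0.53, 0.75, 0.60, 0.64 and 0.70 at the medium dose and 0.48, 0.32, 0.34 and 0.71 at the high dose. The medium- and high-dose mice lay below the vehicle mice without overlap, while the low-dose mice scattered around and below them. The log2 fold changes were -0.25 (limma adjusted p = 0.733), -0.55 (limma adjusted p = 0.0362) and -0.73 (SE 0.15, limma adjusted p = 0.00709). The other two Tug1 probes gave 0.063 (SE 0.073, limma adjusted p = 0.774) and 0.20 (SE 0.13, limma adjusted p = 0.517) at the high dose, so the fall was seen by 1 of 3 probes. Morc2a, the protein-coding gene beside Tug1, changed by -0.13 (limma adjusted p = 0.665).

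Norad, which binds Pumilio proteins and is known to respond to DNA damage, also differed by probe. Of its 4 probes, 2 passed the adjusted p at the high dose under the fold limit, with -0.45 (SE 0.088, limma adjusted p = 0.00459) and -0.38 (SE 0.080, limma adjusted p = 0.00698). The brightest gave 0.071 (SE 0.11, limma adjusted p = 0.837). The remaining probe gave -0.24 (SE 0.16, limma adjusted p = 0.533), with 0 high-dose mice below all vehicle mice. On the probe with -0.45 the vehicle mice had 0.41, 0.46, 0.25, 0.30 and 0.14 and the high-dose mice -0.04, -0.18, -0.06 and -0.25, with no overlap. Neat1 (-0.29, limma adjusted p = 0.412) and Malat1 (-0.26, limma adjusted p = 0.408), abundant nuclear lncRNAs, were not called.

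**Figure D4:**
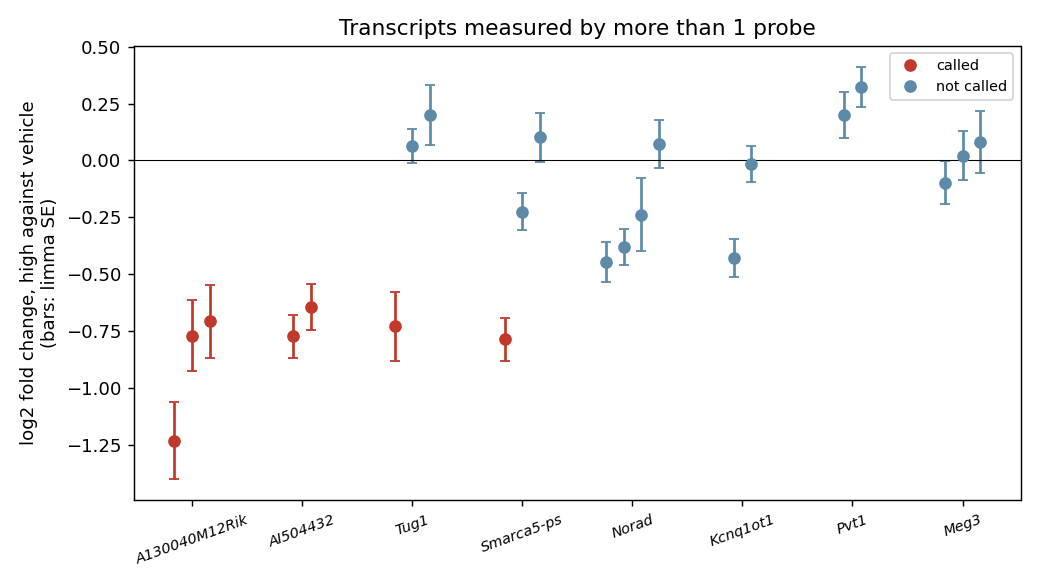
Log2 fold change at the high dose (y axis, bars are the limma SE) for each probe of 8 transcripts with more than 1 probe (x axis), called probes in red. The 3 probes of A130040M12Rik and the 2 of AI504432 are all called lower, whereas 1 of 3 Tug1 and 1 of 3 Smarca5-ps probes are.

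The p53-linked list overlaps with the one before. Of its 16 probes 1 was called lower at the high dose, the Tug1 probe, and 0 higher, with a list median of -0.13. The shares over all probes were 0.805% lower and 0.399% higher, and 16 probes are too few to read 1 call as a contrast. Pvt1, which p53 is known to induce, had estimates of 0.32 (SE 0.090, limma adjusted p = 0.0435, under the fold limit) and 0.20 (SE 0.10, limma adjusted p = 0.343) on its 2 probes. Mir17hg, the host of the miR-17 cluster, gave -0.36 (limma adjusted p = 0.0545) and Mir22hg -0.17 (limma adjusted p = 0.402). The 3 probes of Meg3 gave -0.098, 0.022 and 0.081, and none passed. Of the 7 microRNA precursor and host probes 0 were called at any dose, and their median at the high dose was -0.17. Beside the shares of all probes called, 0 of 7 is no contrast.

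The imprinted transcripts gave 0 calls among 10 probes at the high dose, with a median of -0.047. With 0.805% of all probes called lower and 0.399% higher, 0 of 10 is no contrast. Kcnq1ot1, the antisense transcript that silences its imprinted neighbours, passed the adjusted p on 1 of 2 probes and stayed under the fold limit. That probe read 0.89, 0.78, 0.86, 0.91 and 0.91 in vehicle mice, 0.74, 0.88, 0.66 and 0.71 at the low dose, 0.71, 0.57, 0.29, 0.39 and 0.50 at the medium dose and 0.37, 0.60, 0.33 and 0.46 at the high dose. The change at the high dose was -0.43 (SE 0.084, limma adjusted p = 0.00425), with no overlap between high-dose and vehicle mice. The dimmer probe gave -0.017 (limma adjusted p = 0.957). The 14 probes beside lung and developmental factors gave 0 calls, which at those shares is no contrast either, and Fendrr changed by 0.18 (limma adjusted p = 0.623).

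Host genes of snoRNAs gave 0 calls among 11 probes at the high dose, with log2 fold changes from -0.40 to 0.27 and a median of -0.0068. They gave 1 lower call at the medium dose, where the median was 0.081. Over all probes 0.805% were called lower and 0.399% higher at the high dose, and 0.447% lower at the medium dose. A list of 11 probes is too short to read 0 or 1 call as a contrast. Snhg18, the host of Snord123, read 0.18, 0.23, -0.14, -0.82 and -0.45 in vehicle mice, -0.06, -0.60, -0.80 and -0.86 at the low dose, -1.11, -0.95, -0.99, -0.66 and -1.13 at the medium dose and 0.23, -0.85, -0.98 and -0.81 at the high dose. A single vehicle mouse lay among the medium-dose mice, and 1 high-dose mouse stood apart from the other 3. The medium-dose change was -0.77 (SE 0.21, limma adjusted p = 0.05), at the threshold itself, and 14 of the 18 fits without 1 mouse lost the call, with adjusted p up to 0.136. It was also lost with scale normalization (limma adjusted p = 0.0501), the authors' table (limma adjusted p = 0.0508), the lung channel alone (limma adjusted p = 0.0705) and the scanner software's ratios (limma adjusted p = 0.093). The 2 snoRNA probes, Snora74a and Snora47, gave -0.34 (limma adjusted p = 0.503) and -0.013 (limma adjusted p = 0.989).

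Among the 239 pseudogene probes 2 were called lower at the high dose and 0 higher. Of all probes 0.805% were called lower, a share near that of this list, and 0.399% higher. The list median was 0.011. Smarca5-ps, a copy of the chromatin remodeller Smarca5, read -0.24, -0.34, 0.01, -0.16 and -0.15 in vehicle mice, -0.62, -0.39, -0.76 and -0.63 at the low dose, -0.95, -0.86, -0.74, -0.78 and -0.62 at the medium dose and -1.13, -1.02, -0.96 and -0.72 at the high dose. No exposed mouse overlapped with the vehicle mice on this probe. The log2 fold changes were -0.43 (limma adjusted p = 0.0798), -0.62 (limma adjusted p = 0.000451) and -0.79 (SE 0.096, limma adjusted p = 4.53e-05). The other two probes gave -0.22 (limma adjusted p = 0.139) and 0.10 (limma adjusted p = 0.744), and the probe of Smarca5 itself 0.085 (SE 0.074, limma adjusted p = 0.664).

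Gm17821, listed by the study as LOC100316870, is a pseudogene by RefSeq. Its vehicle values were 2.29, 2.45, 2.59, 2.10 and 2.53, its low-dose values 2.23, 1.96, 2.30 and 2.28, its medium-dose values 1.57, 1.83, 2.14, 1.88 and 1.94 and its high-dose values 1.46, 1.70, 1.64 and 2.10. The highest high-dose mouse almost touched the lowest vehicle mouse. The high-dose change was -0.67 (SE 0.13, limma adjusted p = 0.00352), but it fell under the fold limit without mouse 16 (-0.58), with scale normalization between arrays (-0.56) and with the lung channel alone (-0.58).

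Transcripts without a functional name made up 848 probes, of which 6 were called lower and 1 higher at the high dose. The share of lower calls lies near the 0.805% of all probes, and 0.399% of all probes were called higher. The list median was 0.0042. A130040M12Rik accounted for 3 of the lower calls. Its brightest probe read -0.50, -0.42, 0.31, -0.32 and -0.31 in vehicle mice, -0.88, -1.04, -0.54 and -0.81 at the low dose, -1.38, -1.02, -0.51, -1.09 and -0.79 at the medium dose and -1.14, -1.08, -0.93 and -0.92 at the high dose. High- and low-dose mice lay below all vehicle mice, as did the medium-dose mice, 1 of them by a small margin, and 1 vehicle mouse stood above the other 4. The change at the high dose was -0.77 (SE 0.16, limma adjusted p = 0.0057) on this probe and -1.23 (SE 0.17, limma adjusted p = 0.000154) and -0.71 (SE 0.16, limma adjusted p = 0.013) on the other two.

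AI504432, an lncRNA within 5000 bases of the potassium channel gene Kcna3, had the tightest vehicle group of the called transcripts. It read 0.53, 0.52, 0.47, 0.55 and 0.48 in vehicle mice, 0.18, 0.35, 0.05 and -0.04 at the low dose, -0.28, 0.06, -0.39, -0.20 and 0.09 at the medium dose and -0.27, -0.33, -0.20 and -0.26 at the high dose. All 13 exposed mice lay below all vehicle mice on this probe. The log2 fold changes were -0.38 (limma adjusted p = 0.161), -0.65 (limma adjusted p = 0.000237) and -0.77 (SE 0.096, limma adjusted p = 4.78e-05). The second probe gave -0.22 (limma adjusted p = 0.599) at the low dose, with 2 of 4 mice below all vehicle mice. At the high dose it gave -0.65 (SE 0.10, limma adjusted p = 0.000492), and Kcna3 itself -0.21 (limma adjusted p = 0.315).

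Dubr, an lncRNA known from muscle cell differentiation, and the unnamed accession NR_038041 stand in none of the lists. Dubr read -0.09, 0.07, -0.13, 0.25 and -0.09 in vehicle mice, -0.28, -0.49, -0.37 and -0.45 at the low dose, -0.37, -0.44, -0.61, -0.72 and -0.53 at the medium dose and -0.49, -0.64, -0.64 and -0.76 at the high dose. Every exposed mouse lay below every vehicle mouse, and the changes were -0.40 (limma adjusted p = 0.0878), -0.53 (limma adjusted p = 0.00102, under the fold limit) and -0.63 (SE 0.091, limma adjusted p = 0.000241). The high-dose change fell under the fold limit without vehicle mouse 4 (-0.57) and with the lung channel alone (-0.55). NR_038041 fell from 0.26 ± 0.084 (SD, n = 5) in vehicle mice to -0.37 ± 0.18 (SD, n = 4) at the high dose (log2 fold change -0.63, SE 0.11, limma adjusted p = 0.00195), and the change was -0.57 without mouse 16.

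E030044B06Rik was called higher at the medium and high doses, the only non-coding transcript so called with the normalization used here. At the high dose 2 were called higher with normexp correction, with the authors' table or with the lung channel alone, and 7 with the scanner software's ratios. Over all probes these settings called 234, 210, 201 and 438 higher, beside 222 with the normalization used here. The log2 ratios of E030044B06Rik were 0.93, 0.79, 0.26, 0.48 and 1.06 in vehicle mice, 1.16, 1.29, 0.89 and 1.74 at the low dose, 1.43, 1.37, 1.33, 1.06 and 1.37 at the medium dose and 1.5, 1.61, 1.40 and 1.75 at the high dose. The high-dose mice lay above all vehicle mice, while the low-dose group overlapped and 1 medium-dose mouse met the highest vehicle mouse. The log2 fold changes were 0.57 (SE 0.15, limma adjusted p = 0.199), 0.61 (SE 0.15, limma adjusted p = 0.0206) and 0.87 (SE 0.15, limma adjusted p = 0.00185). The probe is dim, with a mean log2 intensity of 6.54, and was detected in 4 of 5 vehicle mice and in all exposed mice.

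Gm6213 was called at the low dose alone, where it was detected in 1 of 4 mice. It read 1.75, 1.23, 2.14, 1.93 and 1.47 in vehicle mice, -0.20, 1.34, 0.10 and 0.36 at the low dose, 1.79, 1.39, 0.99, 0.89 and 1.04 at the medium dose and 1.57, 1.06, 0.90 and 1.40 at the high dose. Of the low-dose mice, 3 lay below every other mouse and 1 among the vehicle mice. The change was -1.30 (SE 0.25, limma adjusted p = 0.0307), and 6 of the 18 fits without 1 mouse lost the call, as did the fit on the low and vehicle groups alone (limma adjusted p = 0.0816). The changes at the medium and high doses were -0.48 (limma adjusted p = 0.328) and -0.47 (limma adjusted p = 0.377). The difference between doses was not tested for this probe beyond the comparison of high with low, which called none.

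Dropping the fold limit at the high dose left 9 non-coding probes higher (0.74%) and 32 lower (2.63%), where 1.8% and 2.38% of all probes passed the adjusted p in those directions. Those higher, named after their values were seen, included D5Ertd605e beside Pan3, Crnde beside Irx5, known from colorectal tumours, and Morrbid, which controls the lifespan of myeloid cells. Crnde read 0.22, 0.05, -0.13, 0.31 and 0.13 in vehicle mice and 0.64, 0.91, 0.45 and 0.65 at the high dose (log2 fold change 0.55, SE 0.10, limma adjusted p = 0.00278). D5Ertd605e rose by 0.57 (SE 0.097, limma adjusted p = 0.00126) and Morrbid by 0.51 (SE 0.11, limma adjusted p = 0.00715). In all 3 no high-dose mouse overlapped with a vehicle mouse. With each channel quantile-normalized, Morrbid changed by 0.32 in Cy5 and by -0.17 in Cy3, the reference. Crnde changed by 0.58 in Cy5 and 0.096 in Cy3, and D5Ertd605e by 0.58 and -0.050.

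The antisense and divergent transcripts gave 0 calls among 77 probes at the high dose, with a median of 0.0012. With 0.805% of all probes called lower and 0.399% higher, 0 of 77 is no contrast. Under the fold limit 2 passed the adjusted p, both higher, as did 1.8% of all probes in that direction without the limit. Rab10os and Sp3os overlap the genes Rab10 and Sp3. Rab10os changed by 0.38 (SE 0.093, limma adjusted p = 0.0227) and Sp3os by 0.28 (SE 0.070, limma adjusted p = 0.0214) at the high dose, while Rab10 gave -0.14 (limma adjusted p = 0.393) and Sp3 0.050 (limma adjusted p = 0.888).

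**Figure D5:**
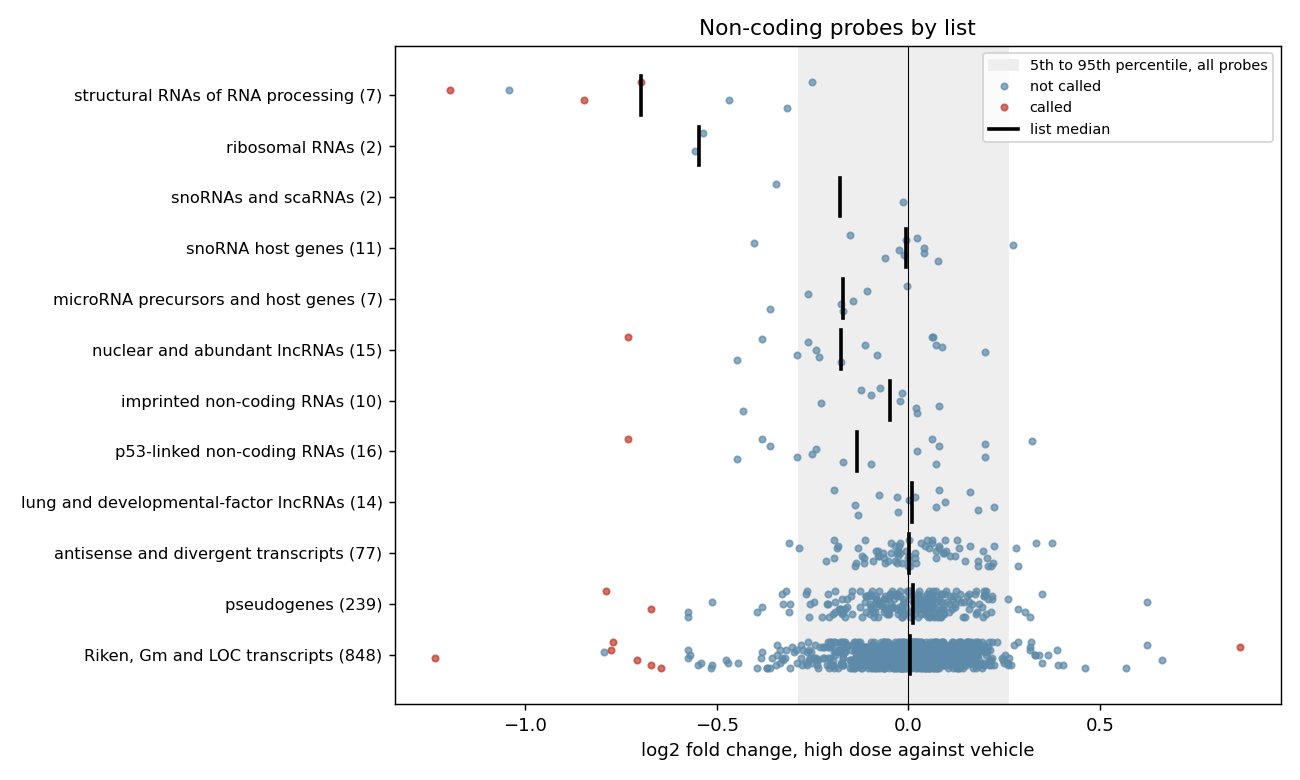
Log2 fold change at the high dose (x axis) of each non-coding probe by list (y axis, with the number of probes; a probe can stand in several lists), called probes in red, list medians as black lines, and the range from the 5th to the 95th percentile of all probes in grey (-0.28 to 0.26). All 7 structural RNA probes lie to the left of 0, and the medians of the pseudogenes and of the transcripts without a functional name lie near 0.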

How the data were processed

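Lung RNA of 18 mice was measured on 18 arrays from 3 slides. The authors deposited scanner output that gives each spot's median signal intensities in both dyes, as scanned. It also has the scanner software's own log10 ratios (Cy5 to Cy3) as deposited. The authors also deposited a table of normalized log2 ratios, which correlated at 0.995 or more with the ratios computed here.

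Probes with an NR_ accession were taken as members. Log2 ratios of median intensities, without background subtraction, were normalized by loess within arrays (R 4.3.3, limma 3.58.1) as in the study's methods. Outlier spots, 215 to 307 per array, and controls were dropped, and replicate spots were averaged by probe. A single limma fit of the 4 groups over 55681 probes gave fold changes, standard errors and Benjamini-Hochberg adjusted p-values. The study used MAANOVA, for which limma stands in. Median Cy5 intensities were 110 to 142 per array, and precision is limited by how few arrays there are. Detection shares were compared by two-sided exact permutation tests. The fit was tested on simulated data.

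Named members are the 10 largest called rises and falls at the high dose, transcripts called at other doses, a list of well-known transcripts and called members of the lists. Named members, lists and markers were chosen with earlier results of these data known. Names and neighbours came from RefSeq (GRCm38.p6), as did promoters. H19, Gas5, Rpph1, Rn7sk and Trp53cor1 were not matched by name and are not reported here. Probes cannot be placed within a transcript from the files used here.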

Additional observations from a re-analysis of the deposited data

Results flagged for a closer look

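In 4 of 68 sets of values, the highest or lowest mouse stood farther from the rest than Dixon's critical value allows, and chance flags about 1 in 20 sets. On the brightest A130040M12Rik probe 1 vehicle mouse was at 0.31, while the next was at -0.31. For Snhg18 1 high-dose mouse was at 0.23 and the next at -0.81. For E030044B06Rik 1 medium-dose mouse was at 1.06, below the next at 1.33. The share of non-coding probes detected was 46.9% in 1 high-dose mouse, on slide 3, and 42.6% in the next.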

How the results depend on the processing

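None of the fold changes of the 16 called probes changed direction under any setting. Normexp background correction, the slide as a block and the filter on dim probes kept all 16 calls, and Aquantile normalization leaves within-array ratios as they are. Median centring in place of loess kept none: it gave 0 calls among the members at the low, medium and high doses (20, 41 and 51 members at an unadjusted p under 0.05), and 69 higher and 11 lower among all probes at the high dose. The scanner software's ratios gave 0 at the low dose, 19 at the medium (7 higher, 12 lower) and 27 at the high dose (7 higher, 20 lower). Calls rose over the whole array too, with 438 higher and 637 lower of all 55681 probes at the high dose, beside 222 and 448 with loess. Dropping the fold limit gave 36 (medium) and 41 (high) of the members. Over all probes it gave 915 higher and 1054 lower at the medium dose and 1000 higher and 1325 lower at the high dose. The single low-dose call, Gm6213, was lost (0) with scale normalization, with the lung channel alone and with only the groups compared, and its scanner ratio change was -3.67 (adjusted p = 0.0629). The lung channel alone gave 6 at the medium (0 higher) and 13 at the high dose, where it called 201 higher and 345 lower of all probes. The cause was not tested. With 1 mouse left out in turn, counts ranged from 0 to 1 at the low, 5 (without vehicle mouse 3) to 12 at the medium and 12 to 19 at the high dose, and stayed at 0 for high against low. The third A130040M12Rik probe fell out of the calls without mouse 16 or vehicle mouse 3 (-0.56). The detection difference at the high dose turned to -0.25 percentage points (exact permutation p = 0.96) with the scanner's other detection flag and ranged from -0.52 to 2.06 with 1 mouse left out. The median vehicle ratio of the members moved from -0.022 to -0.19 with the scanner ratios, and between -0.029 and -0.014 without 1 vehicle mouse. No paired analysis was possible because mouse numbers are not shared between groups. Signals near background limit the dim members.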

Other observations

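Gm5801, a transcribed pseudogene named after its values were seen, fell into separate high and low values. Its log2 ratio was 1.1 in 1 vehicle mouse and between -1.0 and -0.76 in the other 4, 1.24 and 1.45 in 2 low-dose mice and -0.75 and -0.66 in 2, between 1.27 and 1.34 in 4 medium-dose mice and -0.87 in 1, and between -1.04 and -0.55 in all 4 high-dose mice. No dose passed the threshold (limma adjusted p = 0.739, 0.128 and 0.851). Together with Rnu3b1, whose low-dose mice read 3.43, -0.24, 0.66 and 0.38, it had the widest spread within groups of the 403 members detected on all arrays, with pooled within-group SDs of 0.89 and 0.99 beside a median of 0.16.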
